A study of Homo sapiens with 20 samples.

Results

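The histone mark H3K27ac, which sits at enhancers and promoters in use, was followed across 3 windows of the hg19 genome that hold some of the longest acetylated clusters of SMARCB1-expressing G401 cells. The windows ran from 171.7 to 172.55 Mb on chromosome 3, named here after FNDC3B and TNFSF10, from 64.25 to 64.85 Mb on chromosome 17 (PRKCA) and from 13.65 to 14.55 Mb on chromosome 10 (FRMD4A). Every deposited H3K27ac peak that overlapped a window was taken, and overlapping peaks of the 4 libraries were merged into 950 regions, out of 167933 in the genome. There were 277 regions in the FNDC3B to TNFSF10 window, 254 at PRKCA and 419 at FRMD4A. The windows had been chosen because acetylation was extensive there with SMARCB1, so the differences between GFP and SMARCB1 below are descriptions and no test is attached to them.

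G401 is a human rhabdoid tumour cell line whose genotype is labelled SMARCB1(-/-) in all samples. Doxycycline induced either GFP, the control, or SMARCB1, and each condition had 2 H3K27ac libraries. The series held 20 samples in 10 groups, and the H3K4me3, H3K4me1, SMARCA4 and input libraries were not analysed here, so acetylated stretches were not sorted into enhancers and promoters by other marks. Nothing in the labels says whether replicates came from separate cultures.

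SMARCB1 is a core subunit of the SWI/SNF complexes, which use ATP to move nucleosomes and thereby open enhancers to transcription factors. Its loss is the defining lesion of rhabdoid tumours, and returning it to such cells is known to restore activity at distal enhancers. Long runs of neighbouring acetylated enhancers, often called super-enhancers, tend to lie in and around genes that are strongly expressed in a cell type. FNDC3B encodes a membrane-anchored protein with fibronectin type III domains that has been linked to cell migration and to adipocyte differentiation. TNFSF10 encodes TRAIL, a ligand that triggers apoptosis through death receptors. PRKCA encodes protein kinase C alpha, a kinase activated by calcium and diacylglycerol, and FRMD4A encodes a FERM-domain scaffold protein that takes part in epithelial polarity.

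By the order of genes in a RefSeq table of GRCh38.p14, PLD1 and TMEM212 precede FNDC3B, which is followed by GHSR, TNFSF10, NCEH1 and ECT2. PRKCA lies between APOH and CACNG5, and FRMD4A between PRPF18 and FAM107B. The peaks are in hg19 coordinates, so genes were not placed against single peaks. The promoters of FNDC3B, TNFSF10 and PRKCA are printed below from RefSeq, from 250 bases before to 50 bases after the annotated start in GRCh38.p14, because their base composition differs widely although the genes were picked together. Capitals mark each CG dinucleotide. For FNDC3B the first of 2 listed starts is shown, at chr3:172039328-172039627 on the forward strand. The TNFSF10 sequence is chr3:172523381-172523680 on the reverse strand, and that of PRKCA is chr17:66302363-66302662 on the forward strand.

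FNDC3B: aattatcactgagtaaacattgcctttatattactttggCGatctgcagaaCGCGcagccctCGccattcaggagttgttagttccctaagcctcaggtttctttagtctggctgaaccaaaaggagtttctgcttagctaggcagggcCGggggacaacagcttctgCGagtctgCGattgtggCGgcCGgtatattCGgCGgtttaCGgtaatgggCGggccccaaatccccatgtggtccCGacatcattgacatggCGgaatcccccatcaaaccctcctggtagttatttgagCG
TNFSF10: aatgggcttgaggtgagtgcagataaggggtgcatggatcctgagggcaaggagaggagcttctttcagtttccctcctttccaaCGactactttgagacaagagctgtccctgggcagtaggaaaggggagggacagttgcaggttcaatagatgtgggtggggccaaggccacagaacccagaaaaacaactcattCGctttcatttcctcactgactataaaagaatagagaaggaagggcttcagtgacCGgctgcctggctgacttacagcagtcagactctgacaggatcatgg
PRKCA: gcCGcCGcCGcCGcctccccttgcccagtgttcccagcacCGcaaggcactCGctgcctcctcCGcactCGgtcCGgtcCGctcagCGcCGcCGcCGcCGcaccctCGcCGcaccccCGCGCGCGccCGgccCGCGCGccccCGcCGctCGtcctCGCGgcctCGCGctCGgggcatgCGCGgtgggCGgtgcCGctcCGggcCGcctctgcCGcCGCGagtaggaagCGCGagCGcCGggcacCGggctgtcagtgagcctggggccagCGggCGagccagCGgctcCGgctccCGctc

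The TNFSF10 promoter held 3 CG dinucleotides and the printed FNDC3B promoter 16, against 52 in the PRKCA promoter and a median of 14 over 35116 promoters of the same length. Fewer CG were found in 18.2%, 52.5% and 99.2% of all promoters, respectively. The letters TATAAA, searched on both strands, occurred once in the printed FNDC3B promoter and once in that of TNFSF10, and they occurred in 11.5% of all promoters. TGANTCA, the letters bound by AP-1, was absent from these windows of sequence on both strands and present in 7.71% of all promoters. The second FNDC3B start had 41 CG, and the 2 listed starts of FRMD4A had 6 and 1.

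Depth was not given in the files and was solved from each peak's fold enrichment and p-value. The background expected at a summit was 1.82 to 3.74 fragments in the GFP libraries and 3.89 to 4.79 in the SMARCB1 libraries. At that background the weakest called peak had 7 and 11 fragments in GFP replicates 1 and 2, and 13 and 11 in SMARCB1 replicates 1 and 2. The GFP lists held 98251 and 79555 peaks in all, and the SMARCB1 lists 145533 and 135472. Peaks covered 2.92% and 2.7% of the genome with GFP and 4% and 3.31% with SMARCB1, so each window is also given relative to its own library. GFP replicate 2 and SMARCB1 replicate 2 had the closest backgrounds across conditions, 3.74 and 3.89 fragments, but 55.9% and 66.7% of their peaks stood at that background.

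The FNDC3B to TNFSF10 window was almost bare with GFP and densely acetylated with SMARCB1. Peaks covered 10.8 and 8.4 kb in GFP replicates 1 and 2, and 167 and 137 kb in SMARCB1 replicates 1 and 2. Both SMARCB1 libraries thus lay far above both GFP libraries, with means of 152 ± 21.2 kb and 9.61 ± 1.7 kb (SD, n = 2), a ratio of 15.8. The number of peaks was 17 and 11 with GFP and 260 and 256 with SMARCB1. In the shares of a library's covered length the window went from 0.0122% and 0.0102% to 0.137% and 0.136%. Coverage of the window was 0.436 and 0.366 times the genome-wide coverage of the same library with GFP, and 4.91 and 4.87 times with SMARCB1, so the window passed from below to above its library's own level.

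The PRKCA window was already well acetylated with GFP, and more of it was covered with SMARCB1. Peaks covered 98.8 and 104 kb in GFP replicates 1 and 2, and 223 and 193 kb in SMARCB1 replicates 1 and 2. The means were 101.6 ± 3.97 kb and 207.8 ± 20.9 kb (SD, n = 2), a ratio of 2.04, and the groups did not overlap. There were 100 and 97 peaks with GFP against 236 and 252 with SMARCB1. Relative to each library's genome-wide coverage, the window stood at 5.65 and 6.44 times with GFP and at 9.26 and 9.72 times with SMARCB1.

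FRMD4A was the most acetylated of the 3 windows in every library. Peaks covered 237 and 241 kb in GFP replicates 1 and 2, and 425 and 377 kb in SMARCB1 replicates 1 and 2. The means were 238.8 ± 3.24 kb and 400.8 ± 33.8 kb (SD, n = 2), the smallest ratio of the 3 windows at 1.68 but the largest difference at 162 kb. FRMD4A was also the longest window. As a share of the window the differences were close, at 18 percentage points here, 17.7 at PRKCA and 16.7 at FNDC3B to TNFSF10. Peak numbers were 273 and 236 with GFP and 431 and 446 with SMARCB1. The window stood at 9.01 and 9.92 times genome-wide coverage with GFP and at 11.8 and 12.7 times with SMARCB1. In all 3 windows replicate 1 of the SMARCB1 libraries covered more sequence than replicate 2, as it did genome-wide, where it covered 122 against 101 Mb.

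**Figure D1:**
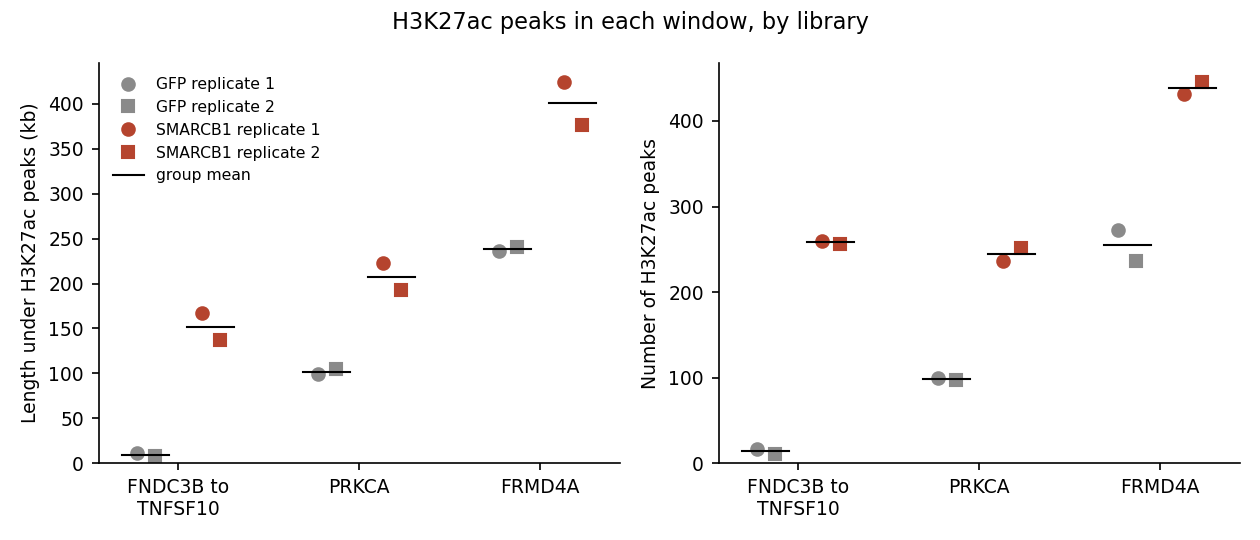
Length under H3K27ac peaks in kb (left) and number of peaks (right) in each window, with a point for each library and a line at the mean of each group of 2. Both SMARCB1 libraries lie above both GFP libraries in every window, from 137 and 167 kb against 8.4 and 10.8 kb at FNDC3B to TNFSF10 up to 377 and 425 kb against 237 and 241 kb at FRMD4A.

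Sequence was called new where a peak was present in both SMARCB1 libraries and absent from both GFP libraries, and lost in the opposite case. New sequence amounted to 95.3 kb at FNDC3B to TNFSF10, 59.5 kb at PRKCA and 113.2 kb at FRMD4A. It made up 90.6%, 36.9% and 34.7% of the base pairs that both SMARCB1 libraries covered in the respective windows, against 27.9% genome-wide. Lost sequence amounted to 0.222 kb, 1.19 kb and 16.4 kb, or 3.14%, 1.47% and 8.77% of what both GFP libraries covered, against 13.8% genome-wide. Whole regions followed the same order: 127 of 277 regions were new at FNDC3B to TNFSF10, 80 of 254 at PRKCA and 116 of 419 at FRMD4A, where 17.5% of all regions in the genome were new. None of the regions was lost at FNDC3B to TNFSF10, 1 was at PRKCA and 13 were at FRMD4A, against 3.94% of all regions in the genome. These windows were picked on this contrast, so nothing is read from the comparison with the genome.

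The new length depends on the demand for both libraries. Without SMARCB1 replicate 2 it came to 156.7 kb at FNDC3B to TNFSF10, 110.3 kb at PRKCA and 188.4 kb at FRMD4A, because sequence covered by SMARCB1 replicate 1 alone then counted as well. New regions numbered 245, 156 and 231 without SMARCB1 replicate 1 and 250, 164 and 235 without SMARCB1 replicate 2. Base pairs under a peak of a single SMARCB1 library made up 46.4%, 30.2% and 22% of all covered sequence in the 3 windows. Libraries overlapped more within replicate pairs than across conditions in all 3 windows. The Jaccard index divides shared by combined length in base pairs. At FNDC3B to TNFSF10 it was 0.584 for the GFP pair, 0.529 for the SMARCB1 pair and 0.0471 to 0.0656 across conditions. At PRKCA it was 0.659 for GFP and 0.636 for SMARCB1, against 0.408 to 0.464 across conditions. At FRMD4A it was 0.645 for GFP and 0.687 for SMARCB1, against 0.433 to 0.457. Unequal lengths cap the index across conditions, and GFP replicate 1 shared 9.21 of its 10.8 kb at FNDC3B to TNFSF10 with SMARCB1 replicate 1.

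**Figure D2:**
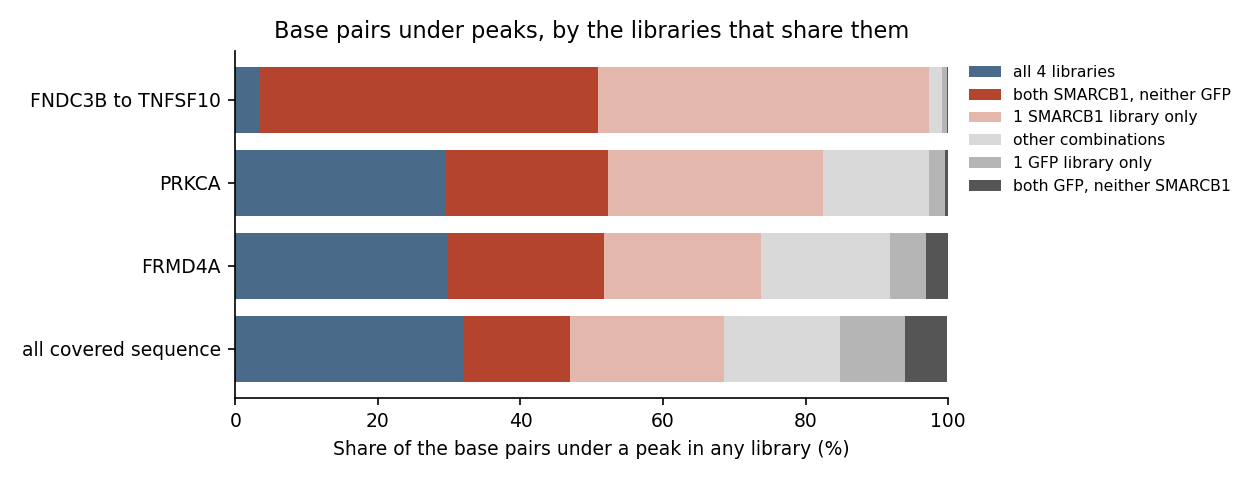
Base pairs under a peak in at least 1 library, split by the libraries that share them, as a percentage of all covered base pairs of each window and of the genome. New sequence takes 47.5% of the FNDC3B to TNFSF10 bar, 22.8% at PRKCA, 21.9% at FRMD4A and 14.9% genome-wide, and sequence shared by all 4 libraries takes 3.34%, 29.5%, 29.8% and 32%.

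The windows were divided into parts after the values had been seen. Within the FNDC3B to TNFSF10 window nearly all acetylation that came with SMARCB1 lay between 171.75 and 172.1 Mb. In that stretch 6.88 and 5.99 kb were covered with GFP, and 151 and 126 kb with SMARCB1. It held 118 of the 127 new regions. The next stretch, from 172.1 to 172.45 Mb, stayed sparse, with 0.517 and 0 kb covered with GFP and 7.8 and 5.76 kb with SMARCB1. The last 100 kb of the window had 3.42 and 2.41 kb with GFP against 6.53 and 4.35 kb with SMARCB1. The name of the window therefore covers more than the cluster: by gene order TNFSF10 follows FNDC3B, and the dense stretch ended before 172.1 Mb. Whether the TNFSF10 promoter lay under a peak was not read.

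The 3 longest stretches of new regions without any GFP peak in this window all lay in its dense part. New regions at most 12.5 kb apart with no GFP peak between them were joined for this purpose. The longest ran from 171865983 to 172026461 on chromosome 3, 160 kb with 65 new regions, and SMARCB1 replicates 1 and 2 covered 43.6% and 36.6% of it. By this rule no GFP peak could fall in it, and it held 117 and 114 SMARCB1 peaks. Of 13911 such stretches in the genome, whose median length was 905 bp, it was the longest. The second, from 171763705 to 171851545, was 87.8 kb long with 32 new regions and ranked 7 in the genome, and the third, from 172029612 to 172086118, was 56.5 kb long with 20 and ranked 22.

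Against 16.7% of all regions in the genome, 1.81% of those in the FNDC3B to TNFSF10 window were acetylated in all 4 libraries, namely 5. The strongest of them ran from 171757347 to 171763541, beside the start of the dense stretch. Its fold enrichment, the caller's summit count over background, was 24.7 and 15.8 in the GFP lists and 23.7 and 19.6 in the SMARCB1 lists. At least 98.1% of the peaks of each list were weaker, so it was among the strongest peaks of cells with and without SMARCB1. The second, from 172468512 to 172470315, had fold enrichments of 15.6 and 11 with GFP and 10.3 and 8.6 with SMARCB1.

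Peaks in both of these shared regions were left out of stitching by the authors. ROSE, the program that joined neighbouring peaks into stitched regions, worked on peaks away from transcription start sites, per the headers of the deposited tables. In GFP replicate 1 the peaks left out included those from 171757347 to 171760009, with 75 fragments at the summit, and from 172468512 to 172469935, with 43. In GFP replicate 2 they included peaks from 171757355 to 171760382, with 82 fragments, and from 172468523 to 172469958, with 51. A peak at the latter place was left out in SMARCB1 replicates 1 and 2 too, with 60 and 41 fragments. The SMARCB1 peaks at the former place lay inside the span of a stitched region, and whether each of them was joined was not read. That region joined 230 and 229 peaks, and SMARCB1 replicates 1 and 2 had 231 and 230 between 171.75 and 172.1 Mb.

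New peaks of the FNDC3B to TNFSF10 window were many, and their fold enrichments were near those of new peaks genome-wide. Their median fold enrichment was 3.89 over 159 peaks in SMARCB1 replicate 1 and 3.68 over 185 peaks in SMARCB1 replicate 2. Peaks of the regions shared by all 4 libraries had medians of 6.91 and 8.29 in the same lists, over only 9 and 8 peaks. Genome-wide the medians in these lists were 3.72 and 3.58 for new peaks and 4.9 and 4.44 for shared ones. New peaks thus had the lower medians there as well. The definitions favour this order: shared regions had to be called in all 4 libraries, and new ones had to be missed with GFP. The longest new region, from 171841817 to 171847755, spanned 5939 bp with fold enrichments of 7.25 and 6.14, and 87.8% and 85% of the respective lists were weaker. The next by length ran from 172030287 to 172034349 (5.23 and 4.85) and from 171887378 to 171890653 (5.87 and 5.99).

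Ranked by the lower of the 2 SMARCB1 fold enrichments, the strongest new regions were not in the dense stretch but side by side in the sparse part of the window. They ran from 172374116 to 172376699, from 172376886 to 172377179 and from 172377292 to 172377968. Their fold enrichments were 6.72, 8.09 and 10.3 in SMARCB1 replicate 1 and 7.78, 7.37 and 6.34 in SMARCB1 replicate 2, with 30 to 60 fragments at the summits. Neither GFP library had a peak there. Of the 5 new regions between 172.1 and 172.45 Mb, these 3 formed a single short cluster.

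**Figure D3:**
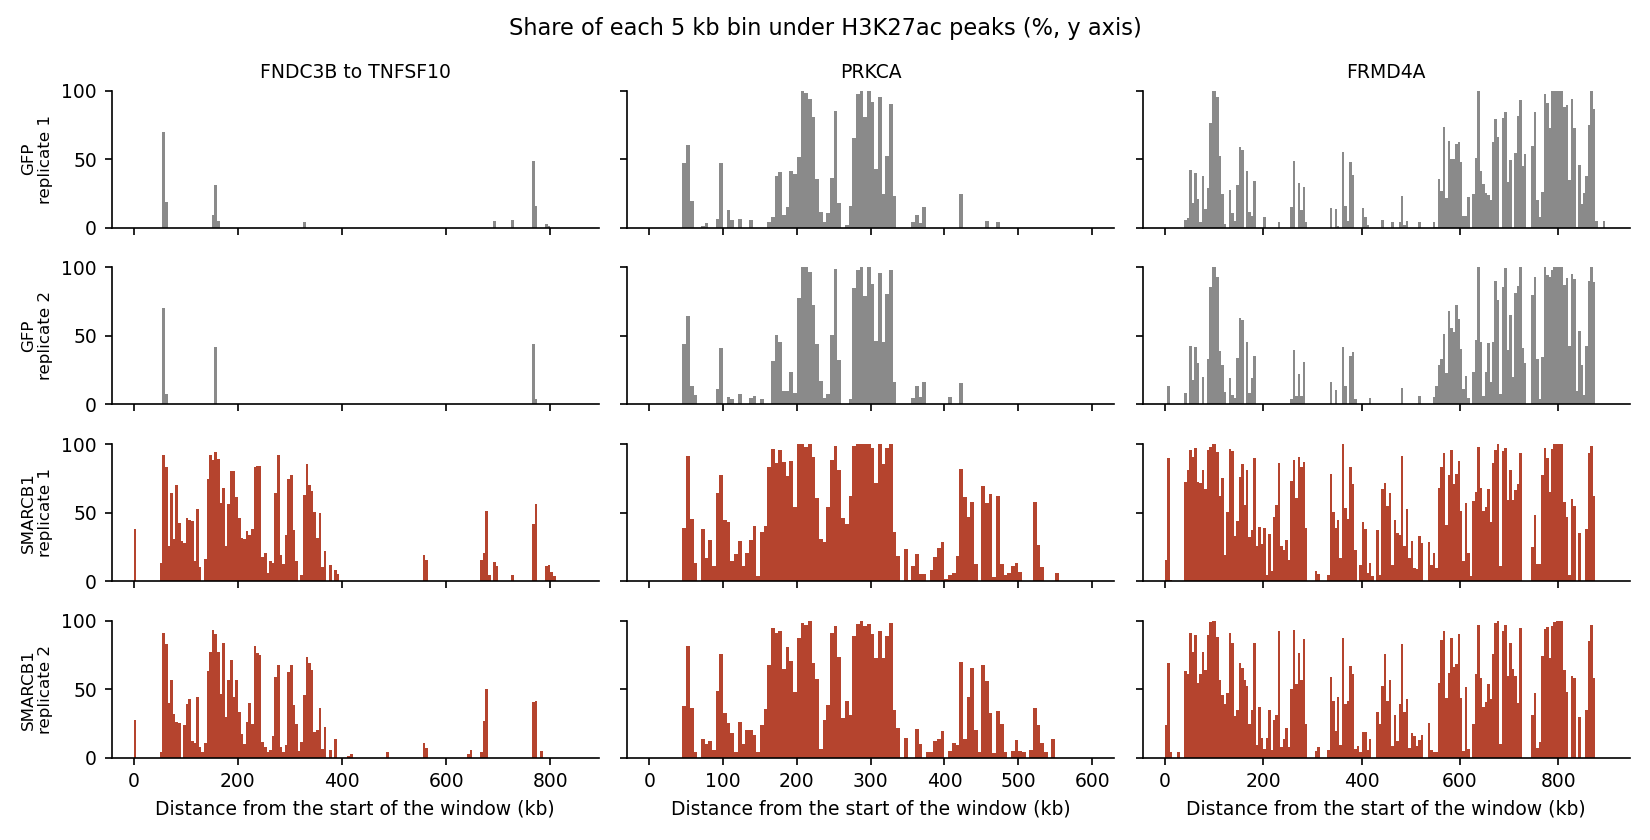
Share of each 5 kb bin under H3K27ac peaks in percent, along each window, for every library, with the x axis as distance from the start of the window in kb. With GFP the FNDC3B to TNFSF10 panels are almost empty, PRKCA has a central block and FRMD4A has blocks at both ends. With SMARCB1 the first part of FNDC3B to TNFSF10 and more is covered around the blocks seen with GFP, and the right end of FRMD4A is not higher than with GFP.

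At PRKCA a central block was acetylated in both conditions, and more was covered with SMARCB1 in the block and on both sides of it. Between 64.4 and 64.6 Mb, 84.9 and 91 kb were covered with GFP and 147 and 134 kb with SMARCB1, a ratio of means of 1.6. To the right, between 64.6 and 64.85 Mb, 3.26 and 3.01 kb were covered with GFP and 41 and 33.6 kb with SMARCB1, a ratio of 11.9. To the left, between 64.25 and 64.4 Mb, the lengths were 10.7 and 10.5 kb against 34.2 and 25.2 kb, a ratio of 2.81. In absolute length the block itself gained most, 52.9 kb, followed by 34.2 kb on its right and 19.1 kb on its left. On the right the bin next to the block, from 64.6 to 64.65 Mb, gained 6.79 percentage points, less than the 24.3 and 26.6 points of the following 2 bins. Of 12 bins of 50 kb, SMARCB1 lay above GFP in 10, below it in 1 and overlapped with it in 1.

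The strongest regions of the PRKCA window were shared by all 4 libraries and lay in the central block. The first, a merged region of 27482 bp from 64524421 to 64551902, held 8 and 6 peaks with GFP and 2 and 8 with SMARCB1, and its highest fold enrichments were 22.7 and 15.6 with GFP and 14.1 and 14.3 with SMARCB1. The second, from 64449052 to 64474678, had 23.7 and 13.7 with GFP and 15.8 and 12.9 with SMARCB1. Between 96.1% and 99% of the peaks of the 4 lists were weaker. Fold values of separately called lists are not on a common scale, and GFP replicate 1 had the highest value in both regions at the lowest background.

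New PRKCA regions were shorter and weaker than these shared regions, which had been picked for their high fold enrichments. The longest stretch of new regions without a GFP peak ran from 64674135 to 64706901, 32.8 kb with 18 regions and rank 104 in the genome, and SMARCB1 replicates 1 and 2 covered 43.4% and 37.4% of it. The strongest new region, from 64688184 to 64689380, lay within that stretch, with fold enrichments of 6.07 and 5.73. It was followed by regions from 64518139 to 64519516 (5.23 and 5.12) and from 64702613 to 64704138 (6.07 and 5.05). The longest new regions ran from 64709203 to 64711413, from 64411445 to 64413573 and from 64681004 to 64683059, 2056 to 2211 bp each. The only lost region, from 64619835 to 64620495, had fold enrichments of 6.73 and 3.59 with GFP. Next to the left edge of the longest SMARCB1 stitched region, peaks were left out of stitching in all lists but GFP replicate 2. They ran from 64297964 to 64298631 in SMARCB1 replicate 1 and from 64298007 to 64298637 in SMARCB1 replicate 2. The GFP replicate 1 peak, from 64297407 to 64297729, did not overlap them.

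FRMD4A combined a filled middle with a right end that was less covered with SMARCB1. The middle, from 13.85 to 14.2 Mb, had 20.9 and 14.7 kb under peaks with GFP and 120 and 96.1 kb with SMARCB1, a ratio of means of 6.06. It held 70 of the 116 new regions and none of the lost ones. The left part, from 13.65 to 13.85 Mb, had 47.5 and 48 kb against 117 and 105 kb, a ratio of 2.33. From 14.2 to 14.35 Mb the lengths were 62.6 and 64.4 kb against 95 and 85.7 kb, a ratio of 1.42.

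The right part of the FRMD4A window went the other way. Between 14.35 and 14.55 Mb, peaks covered 105 and 114 kb in GFP replicates 1 and 2, and 92.3 and 90.3 kb in SMARCB1 replicates 1 and 2. Both SMARCB1 libraries were lower, and the difference of the means, 109.7 ± 6.06 kb with GFP and 91.3 ± 1.39 kb with SMARCB1 (SD, n = 2), was -18.4 kb. It held 12 of the 13 lost regions of the window and 1 of its new ones. The deficit of the SMARCB1 libraries, which had the longer lists, was -23 kb with equal numbers of peaks from every library and -25.1 kb with the strongest 20000 peaks of each, and it stayed between -14.15 and -22.7 kb without any single library.

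Peaks of the lost FRMD4A regions had median fold enrichments of 4.24 and 3.6 in GFP replicates 1 and 2, against 4.6 and 3.99 over the whole lists. The strongest lost region, 2551 bp from 14379101 to 14381651, had fold enrichments of 7.79 and 6.33. In GFP replicates 1 and 2, 79.7% and 79.1% of the list were weaker than this region. It was followed by regions from 14462014 to 14462972 (6.73 and 4.86) and from 14470119 to 14471359 (5.2 and 4.43). Between the first and the second lay the leading shared region of the window by its lowest fold enrichment, from 14430338 to 14461817. This merged region of 31480 bp held 2 separate peaks in each GFP list and 6 and 5 in the SMARCB1 lists, with highest fold enrichments of 28.3 and 19.6 with GFP and 19 and 18.4 with SMARCB1. The other leading shared region lay at the opposite end, from 13735236 to 13755797, with 27.3 and 17.5 with GFP and 20.5 and 16.6 with SMARCB1. The right end thus kept peaks of high fold enrichment in both conditions while its covered length was lower.

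Among new FRMD4A regions, ranked by the lower SMARCB1 value, the leading fold enrichments were 6.91 and 6.96, from 13788910 to 13789504. They were 6.41 and 6.55 from 13992195 to 13993882, and 6.57 and 6.14 from 14104745 to 14105965. The longest new regions ran from 13723386 to 13725883, from 14095632 to 14097988 and from 13786593 to 13788812, 2220 to 2498 bp each. The longest stretch of new regions without a GFP peak was 25.7 kb, from 14142456 to 14168191 with 7 new regions, and ranked 176 of the 13911 in the genome. Regions shared by all 4 libraries and new regions were interspersed at FRMD4A. The shared ones were 68 of 419 there, or 16.2%, close to the 16.7% of all regions in the genome. At FNDC3B to TNFSF10 they were 5 of 277, or 1.81%.

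The authors' deposited tables of stitched regions were read for the longest region of each window. These tables join the same peaks, and the windows were picked for acetylation with SMARCB1. High ranks with SMARCB1 therefore follow from that choice and are a description. At FNDC3B to TNFSF10 the longest stitched region was 8.02 and 3.51 kb long with GFP, joining 5 and 6 peaks. With SMARCB1 it ran from 171752627 to 172090650 and from 171752634 to 172087798, 338 and 335.2 kb, joining 230 and 229 peaks. By number of joined peaks it ranked 1 of 36063 and 2 of 30305 regions, and by length 9 and 6. Inside its span the GFP tables had 3 and 1 stitched regions. That span includes the place of the strongest peak of each GFP list in the window. Both GFP tables left that peak out, so GFP and SMARCB1 lengths are not like for like.

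At PRKCA the longest stitched region was 86.8 and 91.5 kb long with GFP and 452.4 and 432.5 kb with SMARCB1, and ranked 2 by length in both SMARCB1 tables. It joined 223 and 227 peaks, against 48 and 44 with GFP. Inside its span the GFP tables had 9 and 6 separate stitched regions. At FRMD4A the longest was 183.4 and 140.7 kb with GFP and 390.8 and 293.3 kb with SMARCB1, the latter ranking 4 and 10 by length and 3 and 7 by joined peaks. These regions were not all at the same place. With GFP they ran from 14199570 to 14383000 and, at the other end, from 13693174 to 13833872. With SMARCB1 they ran from 13983818 to 14374665 and from 14080843 to 14374185. The table of GFP replicate 2 listed 157 regions in this window, 151 of them single peaks, against 13 in GFP replicate 1, so its longest region there is not comparable with the others. None of the windows held the longest region of any table. Since the tables repeat a single signal value for every region of an ID, the authors' signal ranks and super-enhancer marks were left aside.

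The windows were also set beside tiles of the same length over the rest of the genome that had a peak in any library. The SMARCB1 mean exceeded the GFP mean by 142.4 kb at FNDC3B to TNFSF10, a size that 7 of 2439 tiles reached, with a median tile at 3.72 kb. The excess was 106.1 kb at PRKCA, reached by 14 of 3176 tiles, and 162 kb at FRMD4A, reached by 4 of 2350. With GFP, 55.1% of tiles had at least the coverage of the FNDC3B to TNFSF10 window, against 6.77% for PRKCA and 1.23% for FRMD4A. With SMARCB1 those shares were 6.81%, 1.1% and 0.0426%. The windows were picked for their acetylation with SMARCB1, so their places among the tiles are a description.

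**Figure D4:**
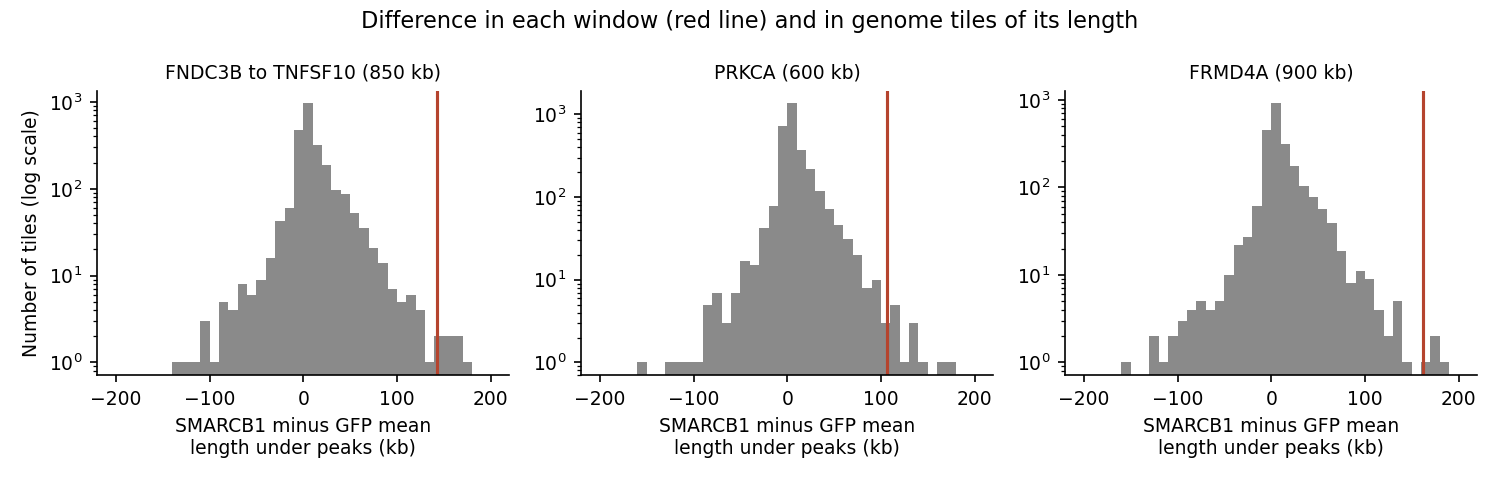
Number of genome tiles (log scale) by the difference in length under peaks, SMARCB1 mean minus GFP mean, in kb, for tiles as long as each window, with the window's own value as a red line. The lines lie at 142.4, 106.1 and 162 kb, where 7, 14 and 4 tiles have values at least as high.

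Restricting the lists reduced the differences without changing their direction. With the strongest 20000 peaks of each library, the FNDC3B to TNFSF10 window had 4.09 and 5.24 kb with GFP and 28 and 20.9 kb with SMARCB1, and PRKCA had 58.8 and 72.2 kb against 99.3 and 87.1 kb. At FRMD4A the values were 127 and 145 kb against 168 and 146 kb, so the groups were barely apart there. With fragments thinned to the lowest background of the libraries, the covered lengths were 10.8 and 7.99 kb against 137 and 108 kb at FNDC3B to TNFSF10, 98.8 and 94.3 kb against 195 and 170 kb at PRKCA, and 237 and 220 kb against 375 and 338 kb at FRMD4A.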

How the data were processed

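The 4 H3K27ac peak lists and the 4 tables of stitched regions were used. Peaks were called by the authors per library on hg19 with MACS2, per the file names, which also name a filter whose rule is not given in the sources used here, like the caller's control. BWA 0.7.12-r1039, SAMtools and bedtools are named per the submitters' processing notes. The deposited fold enrichment is a ratio of summit over background, and the -log10 p and -log10 q values are likewise the authors'. The deposited tables hold the count of peaks joined, their summed length, a signal and a rank per region, made by ROSE per the file headers. Each table was matched to a list by the construct and number in its name, and 100% of its region starts and stops occurred in that list. A further 4 columns of per-sample values were not used.

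Peaks sharing 1 bp or more were merged. Covered length was cut at the window's bounds, and peak numbers include peaks crossing them. Fragments at summits were solved from fold and p within 0.001 for 100% of peaks, and SMARCB1 replicate 1 needed a scale of 0.855 (backgrounds are given before scaling). Thinned peaks kept their width and had to reach the lowest -log10 p of GFP replicate 1, 2.84. Named regions are the 3 longest and 3 strongest new, up to 3 lost and 2 shared ones per window, ranked by the lower fold. Windows, lists and rules were chosen with earlier results of these data known. Region calls and fragment counts were tested on simulated data. Alternatives were the peak threshold, the list length, depth, joining of peaks, window bounds, overlap, the replicate block and leaving out each library. The number of libraries limits the precision. Scripts ran on Python 3.11.15 with pandas 2.3.3, numpy 2.4.6 and scipy 1.17.1, and figures were drawn with matplotlib 3.10.9.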

Additional observations from a re-analysis of the deposited data

How the results depend on the processing

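The differences in covered length and peak number kept their direction under all other settings tried, and so did the 27 values of the 3 parts of windows, which were chosen after the data had been seen. New lengths and counts of new regions cannot be negative, and the replicate block leaves values unchanged, so neither bears on direction. Many sizes moved by more than the spread between replicates, since shorter lists, joined peaks and wider windows change the covered length by construction. The covered length difference at FNDC3B to TNFSF10, 142.4 kb as reported, was 96.2 kb at a -log10 q of at least 5, 106.5 kb with equal numbers of peaks, 19.8 kb with the strongest 20000 peaks, 113.4 kb after thinning, 198.8 kb with peaks within 1 kb joined and 188.5 kb in a window widened by 100 kb. New length there, 95.3 kb as reported, was 61.4, 69.4, 12.6, 68.2, 157.2 and 134.5 kb in the same order. At PRKCA the difference was 74.3, 69.7, 27.7, 86.1 and 139.6 kb under the first 5 of these settings, and new length was 43 kb at the stricter threshold, 39.4 kb with equal numbers, 15.8 kb with 20000 peaks and 91.2 kb with joining. At FRMD4A the difference was 123, 115.9, 21.3, 128.2 and 211.7 kb, and new length was 28.8 kb with 20000 peaks and 162.4 kb with joining. Without 1 library the differences ranged from 127.4 to 157.4 kb, 91.3 to 120.9 kb and 138.1 to 185.9 kb in the 3 windows, and new lengths from 96.3 to 156.7 kb, 69.6 to 110.3 kb and 142.1 to 188.4 kb. New regions fell from 127, 80 and 116 to 58, 24 and 47 at the stricter threshold, 67, 28 and 53 with equal numbers, 81, 47 and 74 after thinning, 34, 19 and 22 with joining and 7, 3 and 10 with 20000 peaks. They were 88, 64 and 149 with a reciprocal overlap of 50%, where FRMD4A had the most, and rose to 250, 164 and 235 without SMARCB1 replicate 2.

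Both groups carry replicate numbers 1 and 2. With the replicate number as a block the mean differences are unchanged by construction, at 142.4, 106.1 and 162 kb, as are new lengths, at 95.3, 59.5 and 113.2 kb. The differences within pairs 1 and 2 were 156.2 and 128.6 kb, 123.7 and 88.5 kb, and 188.2 and 135.8 kb. Over 1981 tiles of 1 Mb, the log2 ratios of replicate 1 to replicate 2 in covered length had a Pearson r of 0.144 between GFP and SMARCB1. Tiles are not independent, and 2 pairs are too few to treat the numbers as a pairing.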

Other observations

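Just before the FNDC3B to TNFSF10 window, a further stretch carried dense acetylation with SMARCB1. Between 171.5 and 171.7 Mb on chromosome 3, peaks covered 11.2 and 7.46 kb in GFP replicates 1 and 2, and 117 and 103 kb in SMARCB1 replicates 1 and 2. Both SMARCB1 libraries covered over 50% of it, 58.5% and 51.7%, a larger share than the 43.1% and 35.9% of the dense stretch inside the window. It held 36 new regions, 9 regions shared by all 4 libraries and no lost one, and 83.9 kb of new sequence. Between the dense stretches, from 171.7 to 171.75 Mb, only 3.8% and 2.76% were covered with SMARCB1 and nothing with GFP. In the gene order TMEM212 and PLD1 are the genes before FNDC3B. The stretch was chosen after its values had been seen.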
